A study of Danio rerio with 6 samples.

Results

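The change in RNA over gastrulation, from shield to tailbud, was measured in zebrafish embryos to which an inhibitor of Nodal receptors was given late. Embryos received SB505124 from 30% epiboly and were frozen at tailbud or, in a separate sample, at shield, which makes 2 of the 6 samples of the series. The comparison takes every transcript record of the authors' table, 13321 in all, and was reduced to 13274 genes by keeping the highest record of each gene symbol. SB505124 is a small-molecule inhibitor of ALK4, ALK5 and ALK7, the type I receptors that pass on Nodal, activin and TGF-beta signals. The remaining samples are epiboly-treated embryos frozen at 7 somites, and embryos treated with the same inhibitor from sphere stage and frozen at tailbud, shield or 7 somites. Each sample pooled 30 to 60 whole embryos, and no strain, genotype or dose stands in the labels. Both stages compared carry the inhibitor and no untreated group was analysed here, so a change between them is a change within inhibited embryos and cannot be read as an effect of the inhibitor.

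Shield is the stage at which gastrulation has begun and the dorsal organizer is visible, and at tailbud the blastoderm has closed over the yolk and the body axis has been laid down. In between, maternal transcripts are cleared, mesoderm and endoderm move inward at the margin, and the neural plate is patterned from front to back by Wnt, FGF and retinoic acid signals. Nodal ligands made at the margin induce mesoderm and endoderm before and during the start of these movements. Sphere stage comes before 30% epiboly, so treatment from 30% epiboly leaves the time between these stages free of inhibitor.

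All values are the authors' upper-quartile normalized (UQN) mean ± standard error of a group, on a scale that does not correct for transcript length, so levels are compared between stages and never between genes. Changes are log2 of (tailbud mean + 5) over (shield mean + 5) ± standard error, a scale that understates the change of low genes. The means of all records sum to 16816560 at tailbud and 20554558 at shield, and the standard error of records with a mean of at least 100 was typically (median) 4.64% of the mean at tailbud and 2.46% at shield. Sequencing depth is unknown. The standard errors lie on the grid that 3 whole numbers give, so 3 values per mean were assumed, and p-values therefore measure only the spread between these values, which may be technical. Of 33 marker genes listed for 8 cell types of the embryo, 29 were measured and 28 stood at 50 or more at tailbud, against 25 at shield. Every measured gene reached a mean of 101 or more in at least 1 group. These counts were thus partly fixed in advance and are no check of the cell types present. The 3 blood markers were not analysed here.

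A gene is said to have risen or fallen where the Benjamini-Hochberg adjusted p of a limma-moderated test was under 0.05. By this rule 4324 genes rose (32.6% of 13274) and 6371 fell (48%), while 2579 did not pass. At least 2-fold changes were found for 1909 genes that rose (14.4%) and 2784 that fell (21%). List counts below are to be read beside these shares, and a count near them says nothing particular about its list. Every record reached a mean of 101 or more in at least 1 group. A gene near 0 at shield is therefore included only where another group was high. In every list and count below, rises of such genes were thus partly fixed in advance. The same holds for falls of genes near 0 at tailbud. The median change of all genes was -0.19, and 38.1% of genes changed by less than 0.5 in either direction on the log2 scale. The balance of rises and falls rests on the scaling. Rescaling the means by trimmed mean of M values factors gave 5438 rises and 5168 falls, by median-of-ratios factors 5335 and 5269, and to equal totals 5800 and 4766, and it moved the median of all genes up by 0.21, 0.19 and 0.28. Of the genes given below as having risen or fallen, the highest adjusted p was 0.0086, that of the myosin gene smyhc1. The calls of smyhc1 and rdh10a were lost when the variance was pooled over all 6 groups (adjusted p = 0.0607 and 0.165).

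**Figure D1:**
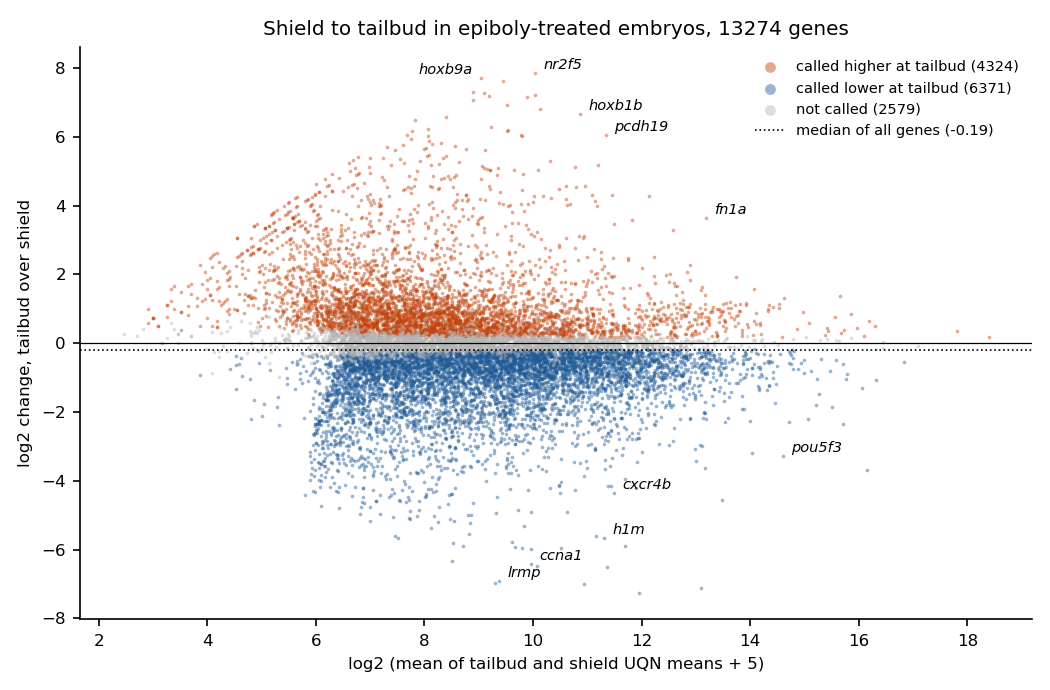
Each point is 1 of 13274 genes, with the log2 of the mean level of both stages on the horizontal axis and the log2 change of tailbud over shield on the vertical axis, coloured by the call. Rises reach 7.86 (nr2f5), falls of genes with a gene name reach -6.97, and the dotted line marks the median of all genes at -0.19.

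The 12 genes with the highest rise, clone and locus names left aside, were led by transcription factors of the neural plate and trunk. nr2f5, a COUP-TF family nuclear receptor, had 2088 ± 172 at tailbud and 4 ± 0.333 at shield, a change of 7.86 ± 0.11 (adjusted p = 1.3e-07). The posterior Hox genes hoxb9a and hoxc8a had 1048 ± 49.6 and 941 ± 64.7 at tailbud, against 0 ± 0.333 and 1 ± 0 at shield. Each of these 3 genes was at or close to 0 at shield. rx3, which the eye field needs to form eyes, had 1380 ± 105 at tailbud and 2 ± 0.882 at shield. The midbrain-hindbrain and otic gene pax2a had 1154 ± 118 at tailbud and 3 ± 0.667 at shield, and fezf2, a zinc finger gene of the forebrain, had 943 ± 86.3 at tailbud and 2 ± 0.667 at shield. The group of 12 also held hoxc3a with a change of 6.92 ± 0.15, hoxb1b with 6.68 ± 0.08 and meis2b, a Hox cofactor, with 6.80 ± 0.15. Outside the nervous system, the activin and BMP antagonist gene fsta had 1871 ± 163 at tailbud and 8 ± 1.16 at shield. The genes of serpina1, a secreted protease inhibitor, and fabp2, a fatty acid binding protein, changed by 7.27 ± 0.36 and 7.22 ± 0.16. The tailbud error of serpina1 was wide, with 1077 ± 315 at tailbud, against 2 ± 0.882 at shield.

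Among the 12 genes with the deepest fall by the same rule were transcripts known from the oocyte and the early cleavages. lrmp, whose maternal product brings the pronuclei together in zebrafish, had 6 ± 1.33 at tailbud and 1317 ± 98 at shield, a change of -6.91 ± 0.17 (adjusted p = 2.5e-07). ccna1, the cyclin A of the germ line, had 18 ± 1 at tailbud and 1971 ± 95.3 at shield, and wee2, an oocyte kinase that restrains Cdk1, had 19 ± 1.86 at tailbud and 887 ± 48.4 at shield. The maternal linker histone gene h1m had 92 ± 13 at tailbud, against 4952 ± 156 at shield. All of these were well above 100 at shield and stood under 100 at tailbud. dock1, an activator of Rac, changed by -5.60 ± 0.09, and the membrane and secretion genes mctp2b and cadps2 by -6.97 ± 0.17 and -5.80 ± 0.25. The rest of the 12 were fam169ab (-5.96 ± 0.14), gcnt7 (-5.88 ± 0.35), bcas3 (-5.77 ± 0.19), b4galnt4b (-5.61 ± 0.25) and morc3b (-5.38 ± 0.19). The highest adjusted p among the 24 genes was 7.0e-06, that of gcnt7.

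Counted from a floor, 74 genes stood at 5 or less at shield and at 100 or more at tailbud, and 39 went the other way. Both counts depend on the rule that every record reached 101 or more in at least 1 group. Changes of at least 16-fold were called for 180 genes that rose and 116 that fell. Besides the genes above, those that came up from the floor included bmp3, a BMP family ligand, with 524 ± 49.6 at tailbud and 2 ± 0.667 at shield. Genes that went down to the floor included npm2a, a maternal chromatin chaperone, with 3 ± 0.882 at tailbud and 121 ± 5.24 at shield, and btg4, which guides clearance of maternal RNA, with 5 ± 1.67 at tailbud and 130 ± 15.7 at shield. These 3 were picked after their values were seen. In whole embryos, more cells of a type and more RNA per cell cannot be told apart.

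**Figure D2:**
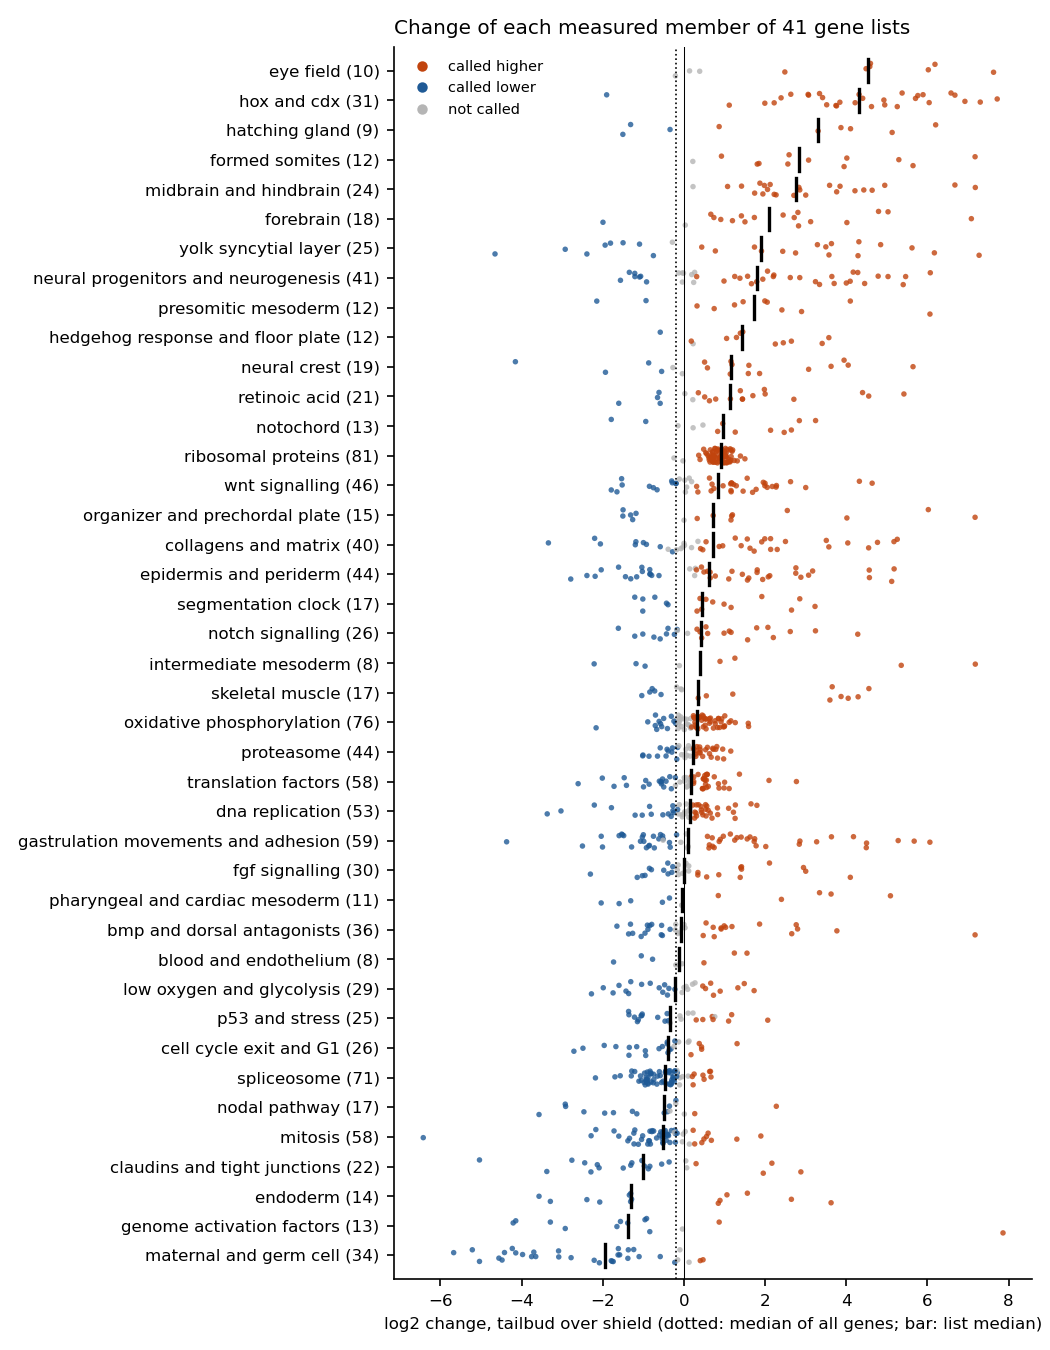
Each point is a measured member of 1 of 41 gene lists, placed by its log2 change of tailbud over shield and coloured by its call, with the number of measured members in brackets and a bar at the list median. The eye field, hox and cdx, and hatching gland lists have the highest medians (4.53, 4.31 and 3.30), the maternal and germ cell list the lowest (-1.94), and the dotted line marks the median of all genes.

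In the mesoderm, genes of the forming tail and somites rose, while the marginal genes tbx16 and tbxta fell. Of 12 measured presomitic mesoderm genes, 8 rose and 1 fell by at least 2-fold, with a median change of 1.72. tbx6, a T-box factor of paraxial mesoderm, had 1731 ± 148 at tailbud and 21 ± 2 at shield, a change of 6.06 ± 0.14. Values of msgn1, a helix-loop-helix factor of the same cells, were 3041 ± 210.3 at tailbud and 567 ± 58.2 at shield, and fgf8a, a ligand made in the tailbud, had 1931 ± 122 at tailbud and 108 ± 11.5 at shield. ripply1, which ends the presomitic programme, had 509 ± 37.2 at tailbud and 64 ± 9.02 at shield. Opposite to these, tbx16, which mesoderm cells need to migrate in, had 1929 ± 90.7 at tailbud, against 8572 ± 319 at shield (-2.15 ± 0.09). tbxta, the Brachyury gene of margin and notochord, likewise fell to 2488 ± 164 at tailbud, against 8627 ± 62.1 at shield (-1.79 ± 0.09). The segmentation clock list was mixed, with 5 of 17 members up and 3 down by at least 2-fold. Of its members, her1 and her7 fell (-1.02 ± 0.09 and -0.72 ± 0.10), whereas her12 and her11 rose (2.65 ± 0.12 and 1.92 ± 0.11). her15.1 and epha4a, which marks segment borders, rose further (3.23 ± 0.17 and 2.85 ± 0.12).

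Genes of formed somites had a median change of 2.83, with 10 of 12 up and none down by at least 2-fold. The list names 18 genes, and those near 0 at shield are included only where another group reached 101 or more. meox1, a homeobox gene of early somites, had 466 ± 21.9 at tailbud and 7 ± 2.33 at shield. pax3a, which marks dermomyotome and neural plate border, had 845 ± 32.2 at tailbud and 12 ± 1.2 at shield, and twist1a, a gene of sclerotome and head mesenchyme, had 534 ± 58.5 at tailbud and 30 ± 2.65 at shield. Their levels at shield were 30 or lower, and the ranges set by the standard errors of both stages lay far apart. The myogenic factor genes myf5 and myod1 had 395 ± 32.4 and 112 ± 16.8 at tailbud, against 12 ± 2.19 and 3 ± 2 at shield. foxc1a, which somites need to form, had 1289 ± 110.4 at tailbud and 210 ± 17.2 at shield. In the muscle list, smyd1b, a gene of fibre assembly, had 132 ± 5.69 at tailbud and 2 ± 0.333 at shield, and prdm1a, a repressor that slow muscle, crest and hatching gland share, had 3085 ± 103 at tailbud and 182 ± 26.8 at shield. The genes of the contractile apparatus named here moved in both directions. The actin gene actc1a, not in the muscle list and named after its values were seen, rose, with a change of 2.34. The tropomyosin gene tpm2 fell to 425 ± 9.54 at tailbud, against 766 ± 22.6 at shield. The slow myosin gene smyhc1, at a low level, fell to 13 ± 4.05 at tailbud, against 32 ± 1.53 at shield. At 7 somites smyhc1 stood at 522 ± 105 in epiboly-treated embryos. Across the skeletal muscle list 7 of 17 members rose and 1 fell by at least 2-fold, and 9 rose and 5 fell by any amount.

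Genes of lateral and intermediate mesoderm moved in both directions. Of 8 intermediate mesoderm genes, 3 rose by at least 2-fold, namely pax2a, pax8 and osr1, and 2 fell, the deeper fall being that of mecom, a zinc finger gene, with 31 ± 1.2 at tailbud, against 162 ± 14 at shield. pax8, of kidney and ear primordia, had 363 ± 15 at tailbud and 4 ± 0.577 at shield, and osr1, a zinc finger gene of lateral mesoderm, had 582 ± 49.2 at tailbud and 241 ± 4.1 at shield. The heart and fin gene hand2 had 199 ± 9.67 at tailbud and 1 ± 0.333 at shield, and tbx1, of pharyngeal mesoderm, had 370 ± 44 at tailbud and 66 ± 6.89 at shield. nkx2.7, a heart and pharynx homeobox gene, had 180 ± 14.7 at tailbud and 10 ± 1.76 at shield. The endoderm and heart factor gata6 instead fell (-1.31 ± 0.17), as did ltbp3, of the second heart field (-2.04 ± 0.13). Over the 11 pharyngeal and cardiac genes, 4 rose and 3 fell by at least 2-fold, and their median of -0.06 turned positive under each rescaling. etsrp, which starts the vessel programme, had 21 ± 5.21 at tailbud and 6 ± 1.2 at shield, and stood at 675 ± 43.4 at 7 somites. fli1, which acts with it, had 39 ± 3.61 at tailbud and 10 ± 1.53 at shield, and stood at 400 ± 21.5 at 7 somites. drl, a gene of lateral mesoderm, fell to 77 ± 6.17 at tailbud, against 268 ± 13.1 at shield. Of the 8 measured blood and endothelium genes 2 rose and 2 fell by at least 2-fold, and their median of -0.12 also turned positive under each rescaling.

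Axial tissues showed rises in notochord, floor plate and hatching gland genes. Of 13 notochord genes 6 rose and 1 fell by at least 2-fold, and of 12 Hedgehog response and floor plate genes 9 rose and none fell. The change over all notochord genes had a median of 0.95, and that over the Hedgehog list 1.42. foxa2, a forkhead factor of floor plate, axial mesoderm and endoderm, had 402 ± 47.6 at tailbud and 60 ± 8.41 at shield (2.65 ± 0.20). The notochord matrix gene emilin3a had 203 ± 18.1 at tailbud and 24 ± 3.18 at shield, plod1a, a collagen-modifying enzyme, had 989 ± 59.3 at tailbud and 100 ± 10.7 at shield, and ntd5, another gene of the notochord list, had 892 ± 89.3 at tailbud and 157 ± 3.48 at shield. noto, which keeps axial cells on the notochord path, had 543 ± 42.8 at tailbud and 602 ± 21.1 at shield, a change of -0.15 ± 0.11 that did not pass the test. Hedgehog ligand genes of the floor plate were not analysed here. Among receptors, inhibitors and effectors, ptch1, a receptor, changed by 2.25 ± 0.09, hhip, a secreted inhibitor, by 2.45 ± 0.07, and the transcription factor genes gli2b and gli3 by 3.41 ± 0.11 and 3.57 ± 0.10.

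Of 9 hatching gland genes 5 rose and 2 fell by at least 2-fold, with a median of 3.30. The cathepsin gene ctslb.4 had 1467 ± 175 at tailbud and 15 ± 1.2 at shield, and its neighbour in sequence, ctslb, had 240 ± 33.7 at tailbud and 2 ± 0 at shield. he1.1 and he1.2, which encode the choriolytic enzyme, had 68 ± 14.8 and 81 ± 2.73 at tailbud, against 0 ± 0.333 and 0 ± 0 at shield. Near-identical copies can share reads, so the separate values of ctslb and ctslb.4, and of he1.1 and he1.2, are uncertain. klf17, a factor that specifies the gland, fell (-1.51 ± 0.06), with 1371 ± 9.84 at tailbud and 3904 ± 40.4 at shield, as did foxa3, a forkhead factor of the gland (-1.32 ± 0.22). In the organizer and prechordal plate list 7 of 15 members rose and 5 fell by at least 2-fold, with a median of 0.72. chrd, the BMP antagonist of the organizer, had 6356 ± 151 at tailbud and 3858 ± 209 at shield, while admp, a BMP ligand also made in the organizer, had 452 ± 28.7 at tailbud, against 1093 ± 14.7 at shield.

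Endoderm genes moved in both directions. The list had a median of -1.30, with 8 of 14 members down and 4 up by at least 2-fold. sox32, the switch gene of endoderm fate in zebrafish, had 441 ± 40.2 at tailbud, against 1875 ± 12.2 at shield (-2.08 ± 0.11), and mixl1, a Nodal target upstream of it, had 61 ± 5.7 at tailbud, against 780 ± 28.9 at shield (-3.57 ± 0.12). sox17, which acts after sox32, rose (1.56 ± 0.30, adjusted p = 0.0023), with 246 ± 51.5 at tailbud and 80 ± 13.9 at shield. hnf4a, a factor of gut and yolk nuclei, fell to 497 ± 102 at tailbud, against 2631 ± 76.6 at shield. The falls of this list also include the pluripotency factor pou5f3, and its rises nkx2.7 and foxa2.

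**Figure D3:**
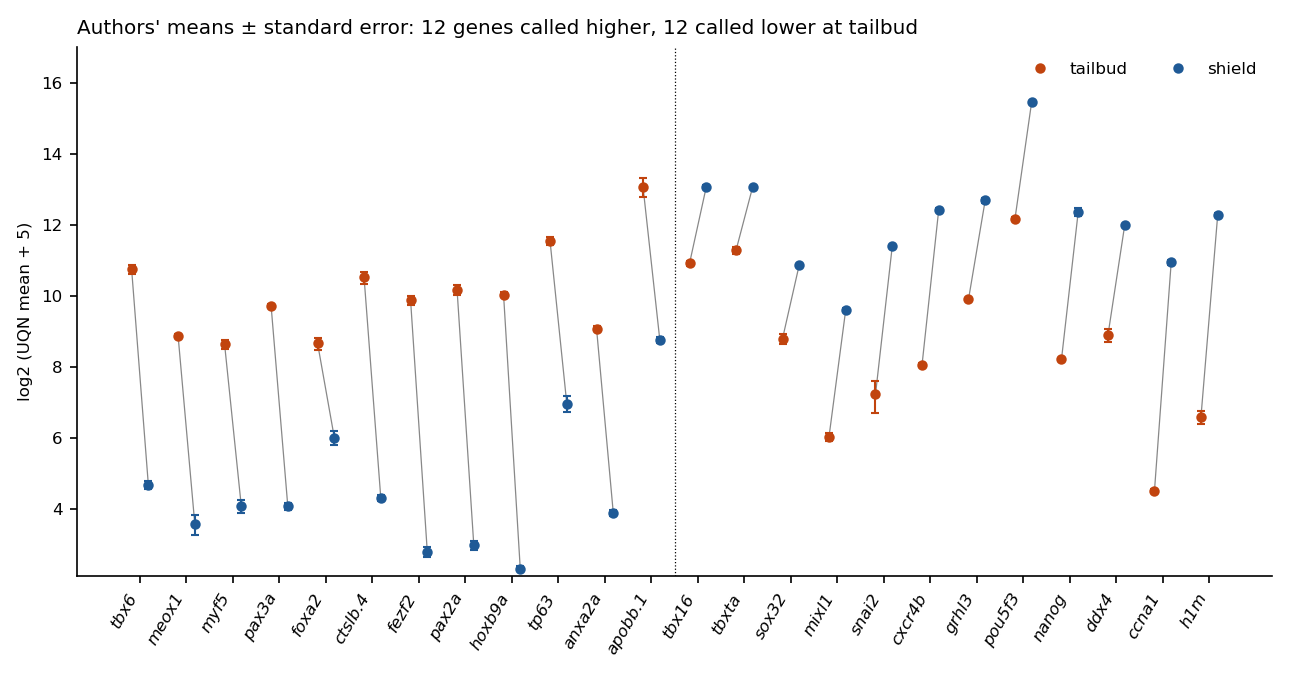
The authors' mean ± standard error of 24 genes is drawn as log2 (mean + 5), with tailbud to the left of shield for each gene. The 12 genes left of the dotted line rose, from tbx6 to apobb.1, and the 12 to its right fell, from tbx16 to h1m.

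In the neural plate lists nearly every change was a rise. Of 24 midbrain and hindbrain genes 23 rose by at least 2-fold and none fell, with a median of 2.77. In the forebrain list 13 of 18 rose and 1 fell, and in the eye field list 7 of 10 rose and none fell. six3b and pax6b, homeobox genes of the anterior plate, had 1748 ± 115 and 1450 ± 83.2 at tailbud, against 22 ± 4.62 and 15 ± 1.76 at shield. six7, a homeobox gene of photoreceptor fate, had 3795 ± 118 at tailbud and 154 ± 6.98 at shield. zic1, a zinc finger gene of the dorsal brain, had 1137 ± 50.9 at tailbud and 30 ± 2.52 at shield, and otx2b, which marks fore- and midbrain, had 2968 ± 137 at tailbud and 179 ± 7.62 at shield. dmbx1a, a midbrain homeobox gene, had 633 ± 38.4 at tailbud and 18 ± 2.19 at shield, and irx7, an Iroquois factor of the hindbrain side, had 3154 ± 145 at tailbud and 940 ± 16.7 at shield. The Wnt ligand gene wnt1 of the midbrain-hindbrain boundary had 194 ± 9.16 at tailbud and 3 ± 0.577 at shield. Against this, lhx5, of the early anterior plate, fell to 295 ± 18.6 at tailbud, against 1192 ± 29.2 at shield.

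Hox and cdx genes, which give cells their position along the trunk, rose by at least 2-fold in 30 of 31 measured members, with a median of 4.31. The list names 50 genes, and a gene near 0 at shield is included only where another group reached 101 or more. Rises of such genes were thus partly fixed in advance. cdx4 and cdx1a, the activators of posterior Hox genes, had 8883 ± 327 and 5326 ± 549 at tailbud, against 2229 ± 109.8 and 263 ± 42.3 at shield. hoxb1b, at the front of the hindbrain Hox order, had 3677 ± 169 at tailbud and 31 ± 1.2 at shield, and hoxb3a had 522 ± 22.3 at tailbud and 3 ± 0.882 at shield. Further along the clusters, hoxb7a had 375 ± 26.2 at tailbud and 2 ± 0.333 at shield and hoxc6b had 665 ± 63.4 at tailbud and 2 ± 1.33 at shield. The exception was eve1, a homeobox gene of the ventral margin, with 836 ± 18.8 at tailbud, against 3146 ± 48 at shield (-1.91 ± 0.06).

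Of 41 genes of neural progenitors and neurogenesis, 25 rose and 6 fell by at least 2-fold. The proneural gene neurog1 had 524 ± 43.1 at tailbud and 7 ± 1.45 at shield, olig2, of motor neuron progenitors, had 398 ± 40.6 at tailbud and 1 ± 0.333 at shield, and elavl3, an RNA binding protein of new neurons, had 367 ± 33.3 at tailbud and 12 ± 1.53 at shield. With a list median of 1.79, the falls included genes of the early ectoderm: sox3 had 3491 ± 171 at tailbud, against 10342 ± 173 at shield, sox11b had 5202 ± 195 at tailbud, against 12038 ± 464 at shield and zic2b had 9255 ± 358 at tailbud, against 19402 ± 119.8 at shield. In the neural crest list 11 of 19 genes rose and 2 fell by at least 2-fold, with a median of 1.16. tfap2a, a border and crest factor, had 6214 ± 159 at tailbud and 2735 ± 159.7 at shield, and msx1b, a target of BMP at the border, had 1963 ± 81 at tailbud and 536 ± 37 at shield. The crest genes snai2 and foxd3, both also present at the early margin, fell to 146 ± 45.4 and 284 ± 18.1 at tailbud, against 2684 ± 85.8 and 1100 ± 46.6 at shield, and stood at 969 ± 24.2 and 1091 ± 44.7 at 7 somites.

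Genes of the surface ectoderm moved in both directions. tp63, which the basal layer needs, had 2986 ± 241 at tailbud and 121 ± 19.7 at shield (4.57 ± 0.20). dlx3b, of epidermis and placodes, had 3399 ± 141 at tailbud and 93 ± 24 at shield, foxi3a, of ionocytes, had 137 ± 12 at tailbud and 1 ± 0.667 at shield, and anxa2a, an annexin, had 538 ± 27.8 at tailbud and 10 ± 0.882 at shield. The keratins of the outer layer were already high: krt4 had 91631 ± 2689 at tailbud and 58644 ± 1549 at shield, a change of 0.64 ± 0.07, and cyt1 had 25745 ± 209 at tailbud and 8702 ± 307 at shield (1.56 ± 0.07). grhl3, a factor of the enveloping layer, had 954 ± 17.8 at tailbud, against 6629 ± 322 at shield, and the adhesion gene epcam 3585 ± 74 at tailbud, against 14755 ± 479 at shield. Over the 44 genes of the list 19 rose and 10 fell by at least 2-fold, with a median of 0.61. Tight junction genes leaned down, with 11 of 22 lower and 3 higher by at least 2-fold and a median of -1.01. cldnd, a maternally supplied claudin, had 12 ± 0.882 at tailbud, against 554 ± 28.3 at shield, and marveld3, a junction protein, had 29 ± 0 at tailbud, against 349 ± 7.84 at shield. oclna, an occludin, had 997 ± 23.1 at tailbud, against 6796 ± 129 at shield, tjp3, a scaffold protein of the junction, 785 ± 43.9 at tailbud, against 4300 ± 38.1 at shield, and cldne, a claudin of the outer layer, 4194 ± 266 at tailbud, against 10421 ± 38 at shield. tjp1b went the other way, with 2226 ± 63.6 at tailbud and 492 ± 15.7 at shield.

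Genes of the yolk syncytial layer, which feeds the embryo, moved in both directions. Of 25 members 14 rose and 7 fell by at least 2-fold, with a median of 1.91. apobb.1 and apoa2, which encode apolipoproteins, had 8574 ± 1592 and 828 ± 137 at tailbud, against 434 ± 25.8 and 37 ± 0.333 at shield. apoa4b.1, of another apolipoprotein, and serpina1l, a relative of serpina1 that may share reads with it, rose by 5.62 ± 0.22 and 6.17 ± 0.31. apoeb, the apolipoprotein E gene, was high throughout with 73914 ± 3988 at tailbud and 54577 ± 1702 at shield, and ctsla, a cathepsin gene of yolk breakdown, had 16814 ± 2414 at tailbud, against 59007 ± 238 at shield. fn1a, a fibronectin that heart cells migrate on, had 17161 ± 1914 at tailbud and 1378 ± 30.6 at shield. The homeobox genes mxtx2 and mxtx1, which set up the layer, had 4 ± 1 and 184 ± 34.6 at tailbud, against 222 ± 30.8 and 1432 ± 49.2 at shield. The tailbud error of apobb.1 was wide, and its rise was 4.29 ± 0.22 (adjusted p = 3.8e-06).

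The signalling lists are given by role. In the Nodal pathway 8 of 17 measured members fell and 1 rose by at least 2-fold, with a median of -0.49. Rescaling moved this median to between -0.30 and -0.20. The co-receptor gene tdgf1, which Nodal ligands cannot do without, had 738 ± 11.3 at tailbud, against 4100 ± 113 at shield (-2.47 ± 0.06). gdf3, the partner ligand of Nodal (Vg1), had 186 ± 11.1 at tailbud, against 1437 ± 46.9 at shield, the receptor gene acvr2ba had 530 ± 6.89 at tailbud, against 2068 ± 45.9 at shield, and foxh1, the nuclear partner of Smad2, had 1182 ± 20.2 at tailbud, against 9015 ± 58.1 at shield. Nodal ligand and Lefty genes were not analysed here. smad3b, a transducer, was the member that rose by 2-fold or more, with 116 ± 4.49 at tailbud and 20 ± 2.91 at shield.

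Of BMP genes and their antagonists 8 of 36 rose and 5 fell by at least 2-fold, and their median of -0.07 turned positive under each rescaling. The ligand genes bmp4 and bmp7a fell (-0.53 ± 0.08 and -0.89 ± 0.09). The ventral repressors vent and vox, which BMP induces, fell to 814 ± 50.1 and 2799 ± 127 at tailbud, against 2570 ± 114 and 5453 ± 60.6 at shield. Of the receptors, bmpr1ba rose (2.80 ± 0.15) and acvr1l fell (-1.36 ± 0.06), and the transducer gene smad5 fell (-1.32 ± 0.07). Of the feedback inhibitors, smad6b and bambib rose (2.77 ± 0.12 and 3.77 ± 0.14) and bambia fell (-0.80 ± 0.07). szl, the sizzled gene, which restrains the protease that frees BMP, had 2392 ± 245 at tailbud and 1172 ± 183 at shield.

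Wnt signalling genes leaned up, with 22 of 46 higher and 4 lower by at least 2-fold and a median of 0.85. Among ligands, wnt8a had 3717 ± 349 at tailbud and 893 ± 24 at shield and wnt5b, which acts without beta-catenin, had 1949 ± 24.5 at tailbud and 659 ± 10.8 at shield, while wnt11f2, needed for convergence and extension, had 1055 ± 19.1 at tailbud, against 1908 ± 18.9 at shield. wnt8b, a ligand of the anterior neural plate, had 115 ± 7.45 at tailbud and 1 ± 0.333 at shield. The nuclear factor genes tcf7 and lef1 changed by 2.63 ± 0.10 and 0.63 ± 0.07, and the feedback target axin2 by 0.67 ± 0.08. ctnnb2, 1 of 2 beta-catenin genes, had 7603 ± 13.5 at tailbud, against 22071 ± 464 at shield (-1.54 ± 0.06). FGF signalling genes had a median of 0.01, with 8 of 30 higher and 3 lower by at least 2-fold. The receptor genes fgfr2 and fgfr3 rose (1.40 ± 0.09 and 2.94 ± 0.15), and so did the feedback inhibitor spry4, with 938 ± 8.51 at tailbud and 356 ± 8.76 at shield. etv4 and etv5b, transcription factors that FGF induces, and ier2b, an immediate early gene, fell (-1.03 ± 0.06, -1.15 ± 0.07 and -2.31 ± 0.15).

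Retinoic acid genes rose in 11 of 21 members by at least 2-fold and fell in 1, with a median of 1.14. dhrs3a, an enzyme that lowers retinal and is induced by retinoic acid, had 209 ± 7 at tailbud and 0 ± 0.333 at shield. cyp26a1 and cyp26c1, the degrading enzymes, had 6023 ± 425 and 485 ± 54.6 at tailbud, against 1853 ± 52.9 and 70 ± 2.91 at shield. crabp2a, which binds retinoic acid in the cell, had 300 ± 3.48 at tailbud and 8 ± 1.2 at shield. rarga, a receptor, changed by 4.40 ± 0.09. rdh10b, an enzyme at the start of synthesis, fell (-1.61 ± 0.06), and its paralog rdh10a rose (0.63 ± 0.15). Notch genes had a median of 0.42, with 9 of 26 higher and 3 lower by at least 2-fold. The ligand genes dla and dld moved apart, with changes of 3.24 ± 0.09 and -1.21 ± 0.06, and the effectors her9 and hey1 did so as well (4.28 ± 0.09 and -1.01 ± 0.11). numb, which inhibits Notch, had 157 ± 7.31 at tailbud, against 492 ± 16.8 at shield.

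Adhesion and movement genes changed in both directions, with 20 of 59 up and 12 down by at least 2-fold and a median of 0.10. The protocadherin gene pcdh19, which holds neural plate cells in columns, had 5132 ± 182 at tailbud and 72 ± 19.2 at shield (6.06 ± 0.29). pcdh18a had 505 ± 5.24 at tailbud and 5 ± 0.882 at shield and cdh11, a mesenchymal cadherin, had 771 ± 20.9 at tailbud and 15 ± 2.91 at shield. cxcl12b, the chemokine, rose to 1579 ± 122 at tailbud, against 216 ± 9.35 at shield, whereas cxcr4b, a chemokine receptor gene, fell to 261 ± 10.7 at tailbud, against 5498 ± 143 at shield (-4.37 ± 0.08). itga5, the fibronectin receptor subunit, and has2, which makes hyaluronan, fell by more than 2-fold (-2.01 ± 0.08 and -2.50 ± 0.16). Matrix genes had a median of 0.71, with 18 of 40 up and 6 down by at least 2-fold. The basement membrane collagen gene col4a5 had 3392 ± 11.2 at tailbud and 140 ± 31.6 at shield, col15a1b had 377 ± 4.18 at tailbud and 5 ± 0.882 at shield, and the laminin gene lama1 had 13398 ± 1340.0 at tailbud and 4334 ± 281 at shield. hapln1b, which links hyaluronan to matrix, and sparc, which binds collagen, rose by 5.17 ± 0.16 and 4.77 ± 0.11, and postnb, a periostin, fell to 10 ± 1.2 at tailbud, against 147 ± 9.24 at shield.

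Maternal and germ cell transcripts fell nearly throughout. Of 34 measured members, 27 fell by at least 2-fold and none rose by that size, with a median of -1.94. piwil1, of the germ line small RNA pathway, had 26 ± 2 at tailbud, against 660 ± 20.2 at shield, buc, which assembles germ plasm, had 7 ± 1.2 at tailbud, against 151 ± 18.3 at shield, and cth1, a zinc finger protein, had 17 ± 3.84 at tailbud, against 487 ± 29.7 at shield. The germ cell markers ddx4 and nanos3, whose transcripts last in primordial germ cells, had 474 ± 57 and 277 ± 8.88 at tailbud, against 4062 ± 118 and 602 ± 11.6 at shield. Factors that open the zygotic genome fell too: pou5f3 had 4613 ± 183 at tailbud, against 45253 ± 183 at shield (-3.29 ± 0.07) and nanog had 293 ± 10.2 at tailbud, against 5269 ± 449 at shield (-4.15 ± 0.12). eomesa, a T-box factor supplied by the mother, had 7 ± 1 at tailbud, against 217 ± 1.86 at shield. In the list of genome activation factors 7 of 13 fell and 1, nr2f5, rose by at least 2-fold, with a median of -1.39. At shield nr2f5 stood near 0, at 4 ± 0.333, and its values give no ground for its place in this list. igf2bp1, an RNA binding protein gene on the maternal list, rose by less than 2-fold (0.47 ± 0.06).

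Among cell cycle genes several cyclins fell. In the mitosis list 13 of 58 genes fell and 2 rose by at least 2-fold, beside 21% and 14.4% of all genes. The list median was -0.51, and 44 fell and 9 rose by any amount, beside 48% and 32.6% of all genes. Rescaling moved this median to between -0.31 and -0.22. Cyclin genes ccna2 and ccnb1 had 4038 ± 35.7 and 5847 ± 99.6 at tailbud, against 19752 ± 536 and 14835 ± 99.1 at shield. The G1 cyclin genes ccne1 and ccnd1 fell as well (-2.49 ± 0.07 and -1.35 ± 0.07), as did ccnd3 (-2.71 ± 0.09), and ccnd2a rose (1.31 ± 0.08). The list of G1 and cell cycle exit genes had a median of -0.40, with 1 of 26 up and 7 down by at least 2-fold. Under rescaling its median lay between -0.21 and -0.12. prc1b, of the spindle midzone, had 363 ± 22 at tailbud and 94 ± 12.7 at shield. DNA replication genes were even in their larger changes, with 6 of 53 up and 6 down by at least 2-fold and a median of 0.15. By any amount 26 rose and 15 fell, beside 32.6% and 48% of all genes. Rescaling moved the replication median to between 0.34 and 0.44. The licensing factor genes cdt1 and cdc6 fell (-2.21 ± 0.06 and -1.79 ± 0.08), as did mcm6l, an MCM6 copy, with 246 ± 25.5 at tailbud, against 2047 ± 21.1 at shield, and mcm3l, an MCM3 copy, with 42 ± 3.18 at tailbud, against 481 ± 32.7 at shield. Reads of such copies may be shared with mcm6 and mcm3. orc3, of the origin recognition complex, had 1308 ± 25.1 at tailbud and 373 ± 6.36 at shield. The p53 and stress list had 3 of 25 members up and 8 down by at least 2-fold and a median of -0.34, which rescaling moved to between -0.15 and -0.06. mdm2, the p53 ubiquitin ligase, fell (-1.37 ± 0.10), and hsp90aa1.1, a chaperone also used in muscle, rose (2.06 ± 0.22).

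The medians of housekeeping lists ran between -0.46 and 0.91. Of 81 ribosomal protein genes 79 rose and none fell, 26 of them by at least 2-fold, with a median of 0.91. rpl3 had 35950 ± 1326 at tailbud and 14460 ± 135 at shield and rpl5a had 10199 ± 539 at tailbud and 3599 ± 123 at shield. Spliceosome genes went the other way, with 57 of 71 lower and 8 higher by any amount, 9 and 0 by at least 2-fold, and a median of -0.46. Over all genes 48% were lower and 32.6% higher by any amount. Rescaling moved the spliceosome median to between -0.27 and -0.17. snrpd3, an Sm core protein, had 1041 ± 65 at tailbud, against 4741 ± 73.2 at shield, and hnrnpa0b, an abundant RNA binding protein, had 39444 ± 926 at tailbud, against 97046 ± 1024 at shield. Oxidative phosphorylation genes had a median of 0.31 with 7 of 76 up and 1 down by at least 2-fold. The member that fell was atp5mc1, of the ATP synthase ring, with 913 ± 44.5 at tailbud, against 4114 ± 63.6 at shield, and ndufs4, of complex I, had 200 ± 14.5 at tailbud and 63 ± 3.79 at shield. Proteasome genes (median 0.23) and translation factor genes (0.17) had 1 of 44 and 5 of 58 up, and 2 and 5 down, by at least 2-fold. eif4e1b, the germ line cap binding protein, fell (-2.61 ± 0.07), and eef2k, the kinase of elongation factor eEF2, rose (2.77 ± 0.14). Low oxygen and glycolysis genes had 3 of 29 up and 8 down by at least 2-fold, and their median of -0.23 became positive when totals were made equal. The enzymes eno3 and gapdh had 666 ± 76.1 and 1758 ± 196 at tailbud, against 2659 ± 54.8 and 5344 ± 71.3 at shield. igfbp1a, which low oxygen induces, had 101 ± 11.1 at tailbud and 27 ± 1.45 at shield.

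The same step was measured in embryos treated from sphere stage, which shows where the change differs between epiboly-treated and sphere-treated embryos. The labels list 1 sample per group. The onset of treatment therefore cannot be told apart from a difference between pools or in the exact stage at harvest. In sphere-treated embryos 1084 genes rose (8.17%) and 2066 fell (15.6%) by at least 2-fold. The genes up in both numbered 989, which is 51.8% of those in epiboly-treated and 91.2% of those in sphere-treated embryos, and those down in both numbered 1901, which is 68.3% and 92.0%. The difference between the changes, epiboly-treated minus sphere-treated, was above 0 for 1588 genes (12%) and below 0 for 1065 (8.02%) at an adjusted p under 0.05, the count below 0 being 686 without moderation of the variance. Standard errors were wider in sphere-treated embryos, with a median of 5.15% at tailbud and 5.18% at shield. Many of the differences lay mainly at shield. Among the 1588 genes the gap between onsets was larger at shield than at tailbud for 1204, with a median of 0.15 at tailbud and -0.50 at shield (log2, epiboly-treated over sphere-treated). Among the 1065 genes it was larger at shield for 840, with medians of -0.21 at tailbud and 0.54 at shield.

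**Figure D4:**
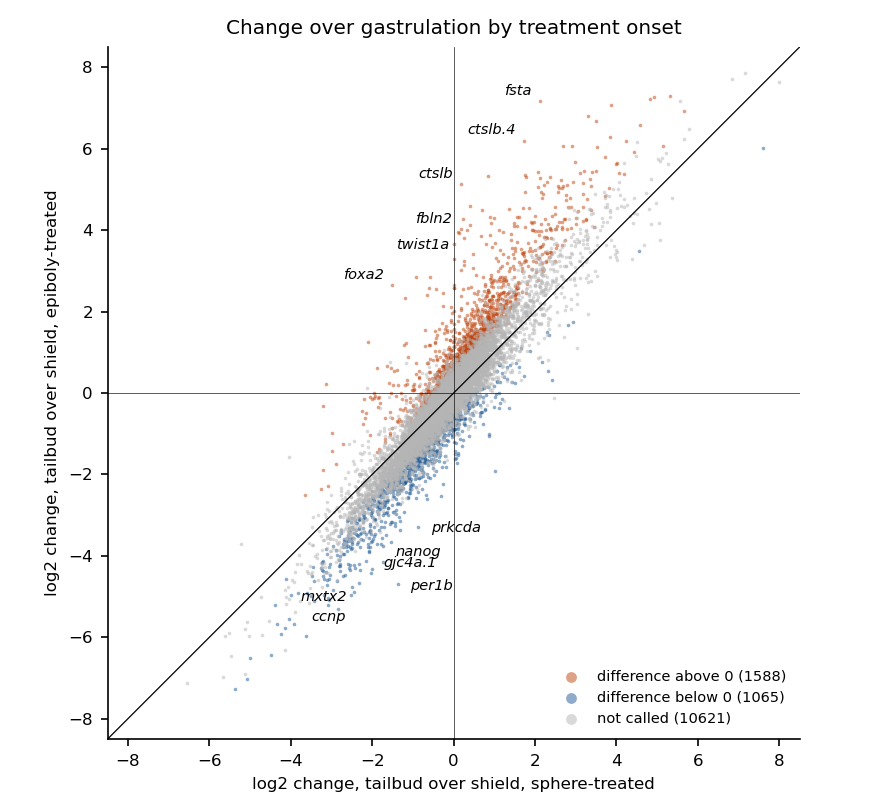
Each point is 1 of 13274 genes, with the log2 change of tailbud over shield in epiboly-treated embryos on the vertical axis and in sphere-treated embryos on the horizontal axis, coloured by the call on the difference. Named genes above the diagonal include fsta and foxa2, with differences of 5.06 and 4.15, and below it per1b, with -3.31.

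Somite, axial and hatching gland lists differed in how many members had a change above that in sphere-treated embryos. Over all genes 12% had a difference above 0 and 8.02% below. Members that stayed low in sphere-treated embryos are included only through epiboly-treated groups, so their differences were partly fixed in advance. An example is ctslb, with 2, 3 and 1 at shield, tailbud and 7 somites in sphere-treated embryos. Larger shares above 0 were not particular to these lists. They were also found for 9 of 17 skeletal muscle, 9 of 19 neural crest, 14 of 31 hox and cdx and 15 of 40 matrix genes. Of these lists 1, 1, 1 and 0 members had a difference below 0. Signalling and housekeeping lists had them too, with 16 of 46 Wnt, 14 of 44 proteasome and 18 of 76 oxidative phosphorylation genes above 0. In the neural progenitor and neurogenesis list it was 14 of 41. Below 0 these lists had 0, 0, 1 and 1 members. In the formed somite list 8 of 12 genes, in the hedgehog response and floor plate list 9 of 12, in the notochord list 8 of 13, in the presomitic mesoderm list 7 of 12 and in the hatching gland list 5 of 9 had a difference above 0, and 1 gene each of the notochord and hatching gland lists had a difference below 0. The organizer and prechordal plate list had 3 of 15 above 0 and 2 below, and the segmentation clock list 6 of 17 above and 1 below. For the formed somite genes the median gap between onsets was 2.51 at tailbud and 0.06 at shield. In the notochord and presomitic mesoderm lists it was also larger at tailbud than at shield. The median gap was smaller in the hedgehog list, at 0.50 and -0.23, and in the hatching gland list, at 0.22 and 0. The hatching gland median hides a wide spread. At tailbud the gap was 5.48 for ctslb.4, 4.94 for ctslb, 3.19 for he1.1 and 2.62 for he1.2. For foxa3 it was 0.22, and for klf17 it was -0.49. Within the hedgehog list the gap of gli2b lay mainly at shield (-0.17 at tailbud and -1.86 at shield). That of hhip was larger at tailbud (0.87 and -0.41). meox1 changed by 5.29 ± 0.23 in epiboly-treated embryos, against 1.78 ± 0.41 in sphere-treated embryos, a difference of 3.51 ± 0.52 (adjusted p = 0.0034), and tbx6 by 6.06 ± 0.14 and 2.69 ± 0.56 (3.37 ± 0.64, adjusted p = 0.0096). sox17 had 246 ± 51.5 at tailbud and 80 ± 13.9 at shield in epiboly-treated embryos, against 7 ± 1.2 and 9 ± 4.33 in sphere-treated embryos (difference 1.78 ± 0.53, adjusted p = 0.040), a call lost with a pseudocount of 1 (adjusted p = 0.0691) and without moderation (adjusted p = 0.0777). Genes that changed by at least 2-fold in opposite directions were foxa2, osr1 and actc1a, a cardiac actin gene, 3 in all and named after their values were seen. actc1a had 147 ± 26.6 at tailbud and 25 ± 4.37 at shield in epiboly-treated embryos, against 12 ± 3.46 and 34 ± 3.28 in sphere-treated embryos. foxa2 had 402 ± 47.6 at tailbud and 60 ± 8.41 at shield in epiboly-treated embryos, against 7 ± 2.19 and 29 ± 7.88 in sphere-treated embryos. osr1 had 582 ± 49.2 and 241 ± 4.1 in epiboly-treated embryos, against 25 ± 2.33 and 123 ± 33.4 in sphere-treated embryos. Values of cxcl12b were 1579 ± 122 and 216 ± 9.35 in epiboly-treated embryos, against 143 ± 10.7 and 277 ± 26.6 in sphere-treated embryos, a difference of 3.77 ± 0.20 (adjusted p = 6.7e-06).

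Among anterior neural genes differences were called for a minority of members, and whether their share differs from that of all genes was not tested. In the eye field list 2 of 10 genes had a difference above 0 and 1 below, and in the forebrain list 4 of 18 had one above 0 and none below, beside 12% above and 8.02% below over all genes. rx3 changed by 7.63 ± 0.17 in epiboly-treated embryos, against 7.98 ± 0.21 in sphere-treated embryos, a difference of -0.36 ± 0.29 with an adjusted p of 0.39. six3b had a difference of -1.57 ± 0.35 (adjusted p = 0.015), and at tailbud its level was 1748 ± 115 in epiboly-treated embryos, against 1927 ± 238 in sphere-treated embryos. For tp63 and pcdh19 the gap was larger at shield. tp63 had 2986 ± 241 at tailbud and 121 ± 19.7 at shield in epiboly-treated embryos, against 5007 ± 101 and 706 ± 151 in sphere-treated embryos. pcdh19 had 5132 ± 182 and 72 ± 19.2 in epiboly-treated embryos, against 6972 ± 274 and 917 ± 311 in sphere-treated embryos. Maternal and germ cell genes had 22 of 34 differences below 0, with a median gap of -0.16 at tailbud and 0.53 at shield. nanog at shield had 5269 ± 449 in epiboly-treated embryos, against 1619 ± 506 in sphere-treated embryos. hey1, a Notch effector, fell in epiboly-treated embryos (-1.01 ± 0.11) and rose in sphere-treated embryos (0.87 ± 0.20), a difference of -1.88 ± 0.25 (adjusted p = 0.0017).

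**Figure D5:**
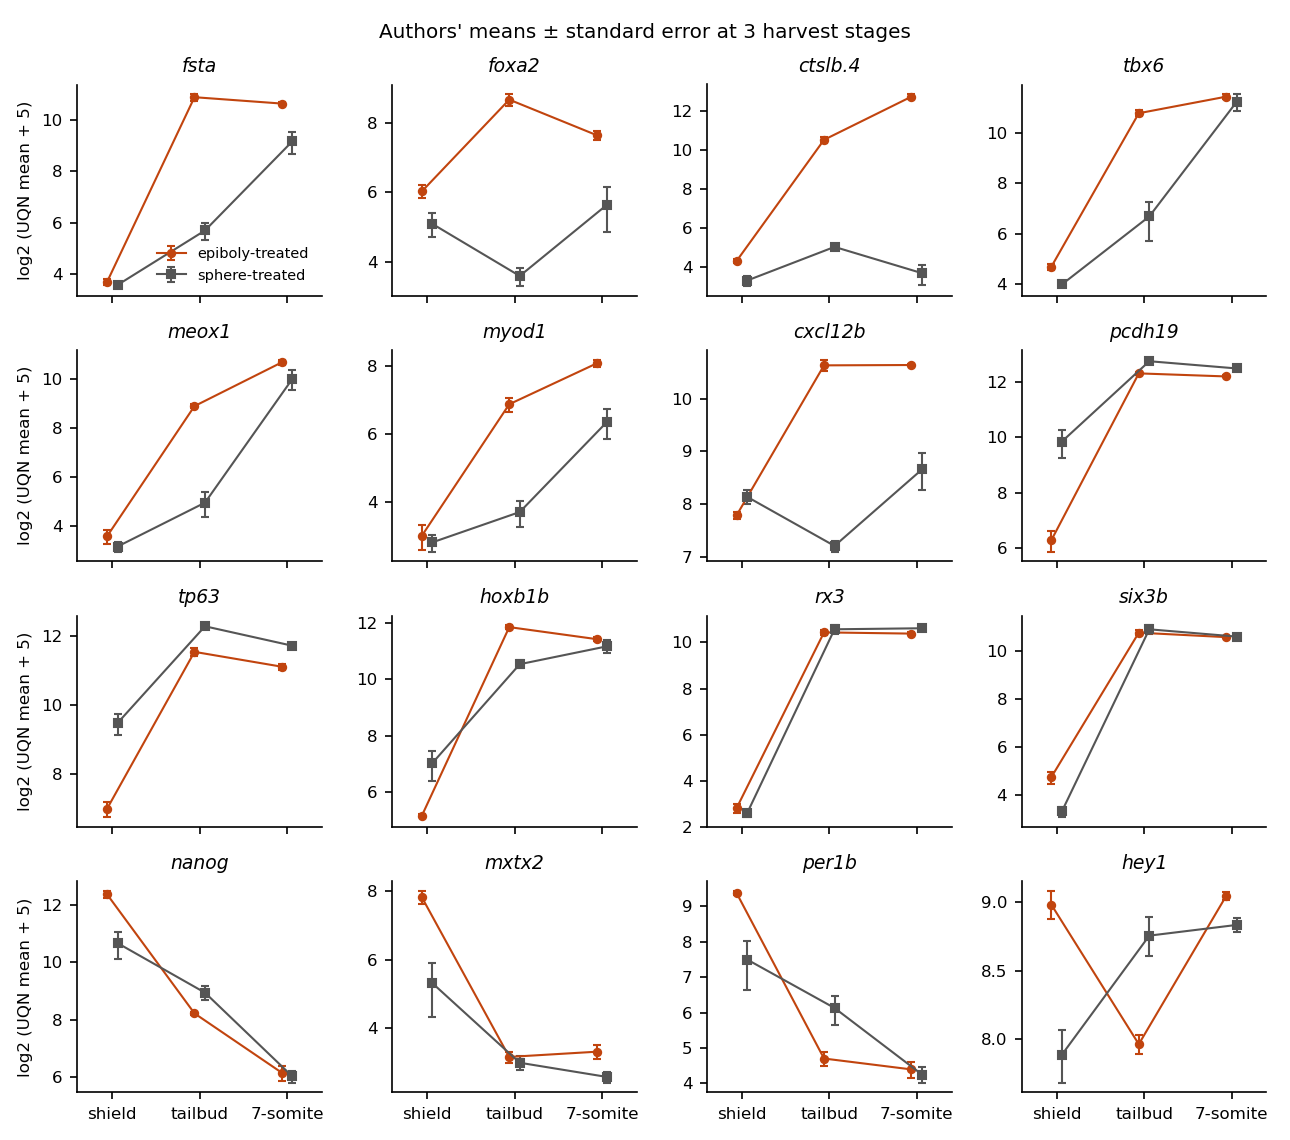
The authors' mean ± standard error of 16 genes is drawn as log2 (mean + 5) at shield, tailbud and 7-somite, for epiboly-treated and sphere-treated embryos. At tailbud foxa2 had 402 ± 47.6 in epiboly-treated embryos, against 7 ± 2.19 in sphere-treated embryos, and rx3 had 1380 ± 105 and 1515 ± 194.

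Values at 7 somites, given side by side because that step shares the tailbud group, show the levels reached later in epiboly-treated embryos. tbx6 had 21 ± 2 at shield, 1731 ± 148 at tailbud and 2728 ± 197 at 7 somites, and meox1 had 7 ± 2.33, 466 ± 21.9 and 1615 ± 123. hoxb9a had 0 ± 0.333, 1048 ± 49.6 and 1641 ± 37.8. ctslb.4 had 15 ± 1.2, 1467 ± 175 and 6808 ± 637, whereas in sphere-treated embryos it had 5 ± 1.76, 28 ± 3.84 and 8 ± 4.49. In contrast to these, foxa2 was highest of the 3 stages at tailbud, with 60 ± 8.41, 402 ± 47.6 and 195 ± 19.2, and olig2 was so as well, with 1 ± 0.333, 398 ± 40.6 and 184 ± 5.51. pou5f3 had 45253 ± 183, 4613 ± 183 and 677 ± 63.1, the lowest of the 3 being at 7 somites.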

How the data were processed

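RNA libraries of whole zebrafish embryos were made with Illumina's TruSeq v2 kit after Qiagen RNeasy extraction, per the labels' protocols. The sources used here do not give the aligner or the genome build. The submitters' processing notes name DESeq 1.6.1. The authors deposited 1 table of 13321 records with a mean and a standard error for each of 6 groups as upper-quartile normalized values rounded to whole numbers, treated here as a score, since no counts or values per replicate come with it. The authors' deposited ratio of epiboly-treated over sphere-treated means and their yes or no call were not used. Every record reached a mean of 101 or more in at least 1 group.

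Records were named with the RefSeq table of assembly GRCz12tu, which matched 12182 by gene ID and 42 by accession, and 1097 stayed unmatched. Where records shared a symbol the highest was kept, which set 47 aside. The labels list 1 sample per group. A mean was read as that of 3 values, since 11992 of 11992 standard errors between 0 and 5 fell on the grid that whole numbers of 3 values give, against 12.4% by chance. The log2 ratio of 2 means, each with a pseudocount of 5, was divided by its standard error (delta method), with variances moderated by limma 3.58.1 in R 4.3.3 (4 degrees of freedom per gene, 8 for the difference between onsets), two-sided, with Benjamini-Hochberg adjustment over 13274 genes and a threshold of 0.05. The procedure was also run on simulated data, drawn from the shield means of epiboly-treated embryos with 1 dispersion for all genes. That setting lacks the wider errors of sphere-treated embryos, so it gives no error rate for these data.

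Genes named in full are the 12 highest and 12 lowest changes and the 6 highest and 6 lowest differences among called genes with a symbol other than a clone or locus name and a mean of 100 or more in either stage. Within lists they are mainly the members with the largest changes or the highest levels. The 41 lists hold 1109 measured genes, and a gene can be in several. Members, lists and tests were chosen with earlier results of these data known. Alternatives were other pseudocounts (1 and 20), a minimum of 100 on the higher mean, 3 other scalings, 3 other variance estimates, and every record.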

Additional observations from a re-analysis of the deposited data

Results flagged for a closer look

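Results are given here because the change from shield to tailbud differed between epiboly-treated and sphere-treated embryos by a test of the difference itself. The change in epiboly-treated embryos was above that in sphere-treated embryos for 1588 genes and below it for 1065. Of the 1588 genes 524 differed by at least 2-fold, and of the 1065 genes 298.

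The 6 highest differences among named genes were in axial, somite, matrix and hatching gland genes. For fsta, the follistatin gene, the difference was 5.06 ± 0.33 (limma, adjusted p = 3.3e-05), with 1871 ± 163 at tailbud and 8 ± 1.16 at shield in epiboly-treated embryos, against 47 ± 11.4 and 7 ± 0.333 in sphere-treated embryos. The hatching gland cathepsin genes ctslb and ctslb.4, which may share reads, differed by 4.94 ± 0.25 (adjusted p = 6.7e-06) and 4.48 ± 0.32 (adjusted p = 5.8e-05). foxa2 differed by 4.15 ± 0.44 (adjusted p = 0.00046). For fbln2, a fibulin of the matrix, the difference was 3.86 ± 0.53 (adjusted p = 0.0021), with 437 ± 46.7 at tailbud and 22 ± 1.2 at shield in epiboly-treated embryos, against 22 ± 8.35 and 19 ± 6.03 in sphere-treated embryos. twist1a differed by 3.85 ± 0.36 (adjusted p = 0.00030), with 534 ± 58.5 and 30 ± 2.65 in epiboly-treated embryos, against 10 ± 2.33 and 9 ± 2.73 in sphere-treated embryos.

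The 6 lowest were genes whose level at shield was higher in epiboly-treated than in sphere-treated embryos. per1b, a circadian clock gene, differed by -3.31 ± 0.69 (adjusted p = 0.013), with 21 ± 3.46 at tailbud and 661 ± 28.4 at shield in epiboly-treated embryos, against 65 ± 19.4 and 176 ± 80.9 in sphere-treated embryos. At shield in sphere-treated embryos the standard errors of per1b and of the other genes of this group were wide. There ccnp had 142 ± 52.8, prkcda 92 ± 39.9, nanog 1619 ± 506 and gjc4a.1 97 ± 24.8. The median error of that group of embryos was 5.18% of the mean over records with a mean of at least 100. ccnp, a cyclin gene, and prkcda, which encodes protein kinase C delta, differed by -2.44 ± 0.60 (adjusted p = 0.022) and -2.43 ± 0.54 (adjusted p = 0.016). nanog differed by -2.42 ± 0.47 (adjusted p = 0.010), and gjc4a.1, a connexin gene, by -2.40 ± 0.54 (adjusted p = 0.016). For mxtx2, of the yolk syncytial layer, the difference was -2.33 ± 0.69 (adjusted p = 0.039), with 4 ± 1 at tailbud and 222 ± 30.8 at shield in epiboly-treated embryos, against 3 ± 1.16 and 35 ± 19.8 in sphere-treated embryos. Like prkcda, mxtx2 stayed under 101 in every sphere-treated group and is included only through epiboly-treated groups.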

How the results depend on the processing

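Counts of genes called in the comparison of stages kept within 1.5 times of those reported under each alternative run. The number of genes with a difference between onsets below 0 was 686 without moderation of the variance, against 1065 with it, and was within 1.5 times under the other alternatives. noto, which did not pass the test, had a change of 0.063 with trimmed mean of M values factors, 0.045 with median-of-ratios factors and 0.14 with equal totals. The changes of rdh10a and smyhc1 did not pass with variances pooled over 6 groups (limma, adjusted p = 0.165 and 0.0607). The differences of mxtx2 and sox17 did not pass with a pseudocount of 1 (adjusted p = 0.0786 and 0.0691) or without moderation (adjusted p = 0.0773 and 0.0777), and that of ccnp did not pass without moderation (adjusted p = 0.0501). The other named changes and differences kept their direction and their side of the threshold wherever an alternative gave a value. With a minimum of 100 on the higher mean, 12299 genes were tested, of which 3765 rose and 6294 fell. No paired analysis was possible because the table gives 1 mean and 1 standard error per group and no value per replicate. For the same reason no replicate could be left out, and neither sequencing depth nor counting error can be given.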

Other observations

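Gene families that share a symbol prefix, chosen after their values were seen, moved unequally between shield and tailbud in epiboly-treated embryos. Of 200 measured solute carrier genes (slc), which move metabolites and ions over membranes, 25 rose (12.5%) and 61 fell (30.5%) by at least 2-fold, with a median change of -0.42 beside -0.19 over all genes. Of 130 zinc finger genes (znf) 9 rose (6.92%) and 31 fell (23.8%) by at least 2-fold, with a median of -0.53. The share of znf genes that fell was near the 21% of all genes. Of 54 ring finger genes (rnf), many of them ubiquitin ligases, 4 rose (7.41%) and 16 fell (29.6%) by at least 2-fold. The 45 genes of the large mitochondrial ribosomal subunit (mrpl) had 4 rises and no fall by at least 2-fold and a median of 0.42, against 16 rises and a median of 0.92 for the 44 genes of the large cytosolic subunit (rpl). Over all genes tested, 14.4% rose and 21% fell by at least 2-fold. Members of a family were not tested as a group.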
